A study of Mus musculus with 10 samples.

Results

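Histone genes code for the proteins that package DNA into nucleosomes. A histone gene was taken where a row of the table named it alone, its symbol began with Hist1h, Hist2h, Hist3h, Hist4h, H2af, H3f or H1f without the pseudogene ending, and its value reached 1 RPKM (reads scaled by transcript length and library size) in at least 2 of the 10 libraries. This gave 40 genes of the 12842 rows that passed the same filter. Of these, 31 belong to the replication-dependent families and are called clustered below (1 H1, 8 H2A, 8 H2B, 4 H3 and 10 H4 genes). The other 9 are called variant genes by their symbols (1 H1, 5 H2A and 3 H3 genes). GENCODE M21 annotates 3 of the genes as pseudogenes, Hist1h2aj, Hist1h2al and the variant H3f3c. The table held 63 histone rows in all. Of those, 13 joined several genes, 2 were pseudogene rows, 7 genes stayed below the filter, and 1 lower row of H1f0 was set aside. The 7 genes below the filter, Hist1h1b, Hist1h2ak, Hist1h2bm, Hist1h3a, Hist1h3e, Hist1h3f and Hist1h4j, had at most 1.43 RPKM in any library, while Hist1h2bp, just inside it, had 0.212 to 1.77 RPKM.

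NIH3T3, the fibroblast line used, was established from mouse embryos. The libraries comprised 4 independent clones with stable overexpression of FOXP2-CPED1, called a FOXP2 arrangement by the series, 4 independent clones with stable overexpression of FOXP2, a forkhead transcription factor, and a control arm of 1 library of cells with vector and 1 of parental cells. The promoter that drives the constructs is not given in the sources used here, and the labels call neither control a clone, which means that effects of cloning and of a construct cannot be told apart. With 1 library per clone, the standard errors and p-values given below rest on the spread between libraries within arms, pooled over all arms. In the construct arms this is the spread from clone to clone. In the control arm it is the gap between the parental and the vector library, which are not replicates of each other. The p-values against control therefore do not measure the spread between clones alone. The title and design pose the question of how the 2 constructs alter expression.

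Clustered histone genes sit together in the genome, are transcribed mainly while DNA is replicated, and give short mRNAs without introns. In place of a poly(A) tail, their mRNAs end in a stem-loop that is bound by the stem-loop binding protein Slbp and cut by the U7 ribonucleoprotein. Variant genes lie apart, are expressed through the cell cycle as polyadenylated mRNAs, and supply histones such as H2A.Z and H3.3 that can be placed outside replication. The kit used 1 µg of total RNA per the labels, and whether polyadenylated RNA was selected is not given there.

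Summed RPKM per library ran from 794682 to 944602, and relative depth, read from the steps between low values, from 0.911 to 1.31 of the parental library. The absolute depth is unknown. Spearman correlations between libraries were 0.925 to 0.982, with parent and vector the most alike, and 0 pairs were identical. The mitochondrially encoded rows stood at 0 in FOXP2-CPED1 clone 3 and FOXP2 clones 2 and 4, so a value of 0 may reflect a failed estimate. Of 8 fibroblast markers, 7 had a row of their own, with a sum of at least 5917 RPKM in every library. Epithelial markers (2 of 5 with a row) summed to at most 5.19 RPKM and the 1 endothelial marker with a row to at most 0.535. The mouse Foxp2 row lay between 0.0674 and 0.330 RPKM in FOXP2-CPED1 clones, 0.145 and 1.02 in FOXP2 clones, and 0.0785 and 0.0798 in controls. That row does not check the labels, because the species of the introduced sequence is not given.

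Clustered histone transcripts had higher summed levels in every clone than in either control, and the H2A genes made up most of that difference. Summed over the 31 clustered genes, the level was 638, 577, 479 and 379 RPKM in FOXP2-CPED1 clones 1 to 4, 676, 1252, 373 and 524 RPKM in FOXP2 clones 1 to 4, and 346 RPKM in parental and 178 RPKM in vector cells. The 9 variant genes summed to 1592, 1555, 1434 and 1688 RPKM in FOXP2-CPED1 clones, 1511, 2114, 1589 and 1527 RPKM in FOXP2 clones, and 1499 and 1361 RPKM in parental and vector cells. For the clustered genes no clone sum overlapped the controls. For the variants the FOXP2 sums also lay above both controls, and among FOXP2-CPED1 clones only clone 3 lay between the controls. No single histone gene passed the test, as set out next, so these sums are descriptions. In such bulk samples, more cells in S phase and more histone RNA per cell cannot be told apart.

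Each gene was tested with limma on log2(RPKM + 1), with Benjamini-Hochberg adjustment over all 12842 rows and an adjusted p of 0.05 as the threshold. With FOXP2-CPED1 against control, 0 of 40 histone genes passed, against 0.35% of all rows, and 10 (25%) had an unadjusted p under 0.05, against 7.28% of all rows. With FOXP2 against control, 0 of 40 passed, against 0.436%, and 11 (27.5%) had an unadjusted p under 0.05, against 8.52%. Between FOXP2-CPED1 and FOXP2, 0 of 40 passed, against 0% of all rows, and 0 had an unadjusted p under 0.05, against 2.16%. With library quality weights, which let limma count a variable library less, 9 genes passed with FOXP2-CPED1 (22.5%, against 7.23% of all rows) and 18 with FOXP2 (45%, against 16.3%), and 0 between the constructs (0.0311% of all rows). With FOXP2-CPED1 those were Hist1h2ap, Hist1h2ag, Hist1h2ah, Hist1h2ai, Hist1h4c, Hist1h4d and H3f3b, higher in the clones, and Hist1h2bq and Hist1h3g, lower. With FOXP2 they comprised 5 H2A, 8 H4 and 2 H3 genes that were higher, and Hist1h3g, H2afj and H3f3c, which were lower. No other alternative setting gave a call in a comparison. Against control, the unadjusted and the weighted counts include Hist1h4c and Hist1h4d, and the weighted count with FOXP2 also Hist1h4f. Both controls lay under 1 RPKM for these genes. They passed the filter only through clone libraries, which favours a higher value in the clones.

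**Figure D1:**
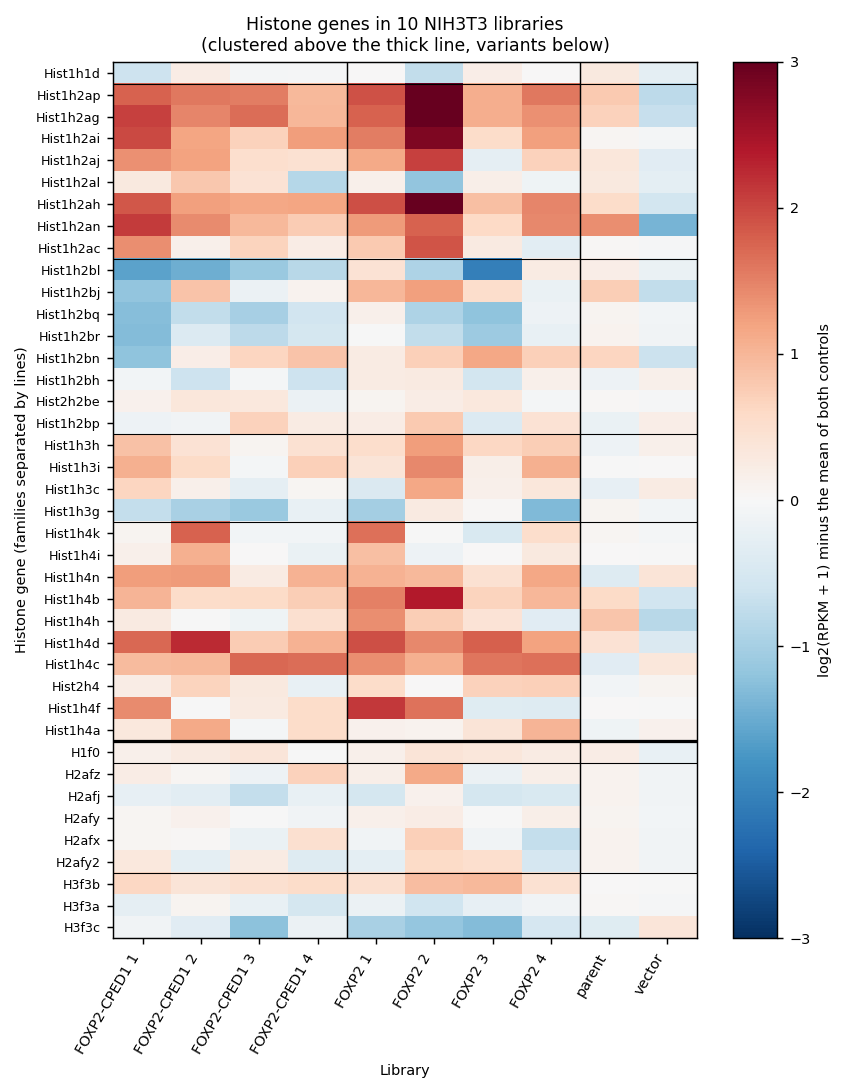
Difference of log2(RPKM + 1) from the mean of both controls, for the 40 histone genes (rows, by family) in the 10 libraries (columns, FOXP2-CPED1 clones, FOXP2 clones, then parent and vector). Most H2A and H4 rows are positive in the clones, several H2B rows are negative in FOXP2-CPED1 clones, and among the variants below the thick line H3f3b is positive in all 8 clones.

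The median log2 fold change of the 31 clustered genes was 0.42 with FOXP2-CPED1 and 0.64 with FOXP2 against control, beside medians over all rows of 0.00161 and 0.0162. With FOXP2-CPED1 it was 0.92 over the 12 clustered genes with a mean of 5 RPKM or more, 0.25 with joined histone rows added, and 0.26 without FOXP2-CPED1 clone 2. For the 9 variant genes the median was 0.02 and 0.08. Of the clustered genes, 24 of 31 lay above 0 with FOXP2-CPED1 and 25 of 31 with FOXP2, and of the variant genes 5 of 9 in both. These counts are tilted by the filter and are given as a description. Both controls lay under 1 RPKM for 7 clustered genes (Hist1h2ac, Hist2h2be, Hist1h2bp, Hist1h4a, Hist1h4c, Hist1h4d and Hist1h4f), which passed it only through clone libraries, and all 7 lay above 0 in both comparisons. Of the other 24 clustered genes, 17 lay above 0 with FOXP2-CPED1 and 18 with FOXP2, and 0 variant genes passed in that way. The comparisons share their control libraries, so their values are not independent of each other. The difference between clustered and variant genes was not tested, since the genes were chosen with earlier results known.

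Libraries of clones and controls did not overlap for 14 of the 40 genes with FOXP2-CPED1, beside 25.6% of all rows. Among them 9 were higher in the clones (12.2% of all rows were) and 5 were lower (13.3% of all rows). With FOXP2 they did not overlap for 13 genes, beside 19.5% of all rows, 11 higher (9.13% of all rows) and 2 lower (10.4%). The higher genes include Hist1h4c and Hist1h4d in both comparisons and Hist1h2ac with FOXP2-CPED1. These genes passed the filter only through clone libraries, which favours that direction, so the counts are a description. Between FOXP2-CPED1 and FOXP2 this held for 0 of the 40 genes, beside 1.38% of all rows.

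The 8 clustered H2A genes had median log2 fold changes of 1.29 with FOXP2-CPED1 and 1.40 with FOXP2. H2A pairs with H2B in the dimers that flank the H3 and H4 core of the nucleosome. Hist1h2ap, the most abundant clustered gene, had 286, 252, 242 and 164 RPKM in FOXP2-CPED1 clones 1 to 4, 313, 695, 177 and 251 RPKM in FOXP2 clones 1 to 4, and 143 RPKM in parental and 48.0 RPKM in vector cells. Every clone lay above both controls, FOXP2 clone 2 lay far above the rest, and the vector library was the lowest. Means were 236 ± 51.4 RPKM (SD, n = 4) with FOXP2-CPED1, 359 ± 231 with FOXP2 (n = 4) and 95.7 ± 67.4 in control (n = 2). The log2 fold change by limma was 1.47 ± 0.53 (SE, adjusted p = 0.525) with FOXP2-CPED1 and 1.90 ± 0.53 (adjusted p = 0.253) with FOXP2. Hist1h2ap held between 27.0 and 55.5% of the summed clustered RPKM of a library.

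Hist1h2ag, Hist1h2ah and Hist1h2ai had the same order of libraries at both ends. Hist1h2ag had 78.5, 51.7, 59.96 and 37.4 RPKM in FOXP2-CPED1 clones, 64.8, 163, 39.6 and 48.6 in FOXP2 clones, 30.2 in parental and 10.8 in vector cells. Hist1h2ah had 26.5, 16.6, 15.7 and 16.01 RPKM in FOXP2-CPED1 clones, 27.7, 61.6, 13.1 and 19.6 in FOXP2 clones, 9.93 in parental and 4.17 in vector cells. Hist1h2ai had 67.0, 38.5, 26.9 and 40.1 RPKM in FOXP2-CPED1 clones, 49.1, 119, 24.4 and 39.8 in FOXP2 clones, 17.1 in parental and 15.6 in vector cells. For all 3 genes FOXP2 clone 2 was the highest library, vector the lowest, and no clone overlapped a control. Their log2 fold changes were 1.54 ± 0.55, 1.36 ± 0.52 and 1.27 ± 0.52 with FOXP2-CPED1 and 1.83 ± 0.55, 1.84 ± 0.52 and 1.53 ± 0.52 with FOXP2 (SE). The adjusted p-values from limma were 0.513, 0.559 and 0.629 with FOXP2-CPED1, and 0.311, 0.257 and 0.385 with FOXP2. Of the 50-base stretches of their transcripts, 78.9%, 90.7% and 90.1% also occur in transcripts of other genes. These rows may thus hold the same reads, and their likeness does not count as separate observations.

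The distance between the controls bears on the size of these values. Vector cells had 8 of the 31 clustered genes at a level 2-fold lower or more on the log2(RPKM + 1) scale (0.763% of all rows), and 0 genes 2-fold higher or more (1.54% of all rows). Of the 9 variant genes, 0 differed by 2-fold. Hist1h2an, another H2A gene, showed the widest gap, with 0.919 RPKM in vector and 12.1 RPKM in parental cells, and its FOXP2-CPED1 clones (7.55 to 20.4 RPKM) and FOXP2 clones (6.55 to 16.2 RPKM) overlapped the parental value. Against the parental library alone, the median log2 difference of the H2A genes was 0.64 with FOXP2-CPED1 and 0.88 with FOXP2; against the vector library alone it was 1.61 and 1.98. Hist1h2ap had a log2 fold change of 0.69 with FOXP2-CPED1 and 1.13 with FOXP2 without the vector library, and of 2.24 and 2.68 without the parental one.

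The 3 remaining H2A rows behaved less uniformly. Hist1h2aj had 26.0 to 50.5 RPKM in FOXP2-CPED1 clones and 15.4 to 80.8 in FOXP2 clones, against 14.6 and 24.0 in controls. Hist1h2ac was low, with 0.954 to 3.61 RPKM in FOXP2-CPED1 clones, 0.409 to 5.51 in FOXP2 clones and 0.714 and 0.778 in controls. Hist1h2al had its lowest values in FOXP2 clone 2 (11.8 RPKM) and FOXP2-CPED1 clone 4 (14.9 RPKM), against 22.5 RPKM in vector and 34.5 RPKM in parental cells. GENCODE M21 annotates Hist1h2aj as an unprocessed and Hist1h2al as a processed pseudogene, so their rows may hold reads of other H2A genes.

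**Figure D2:**
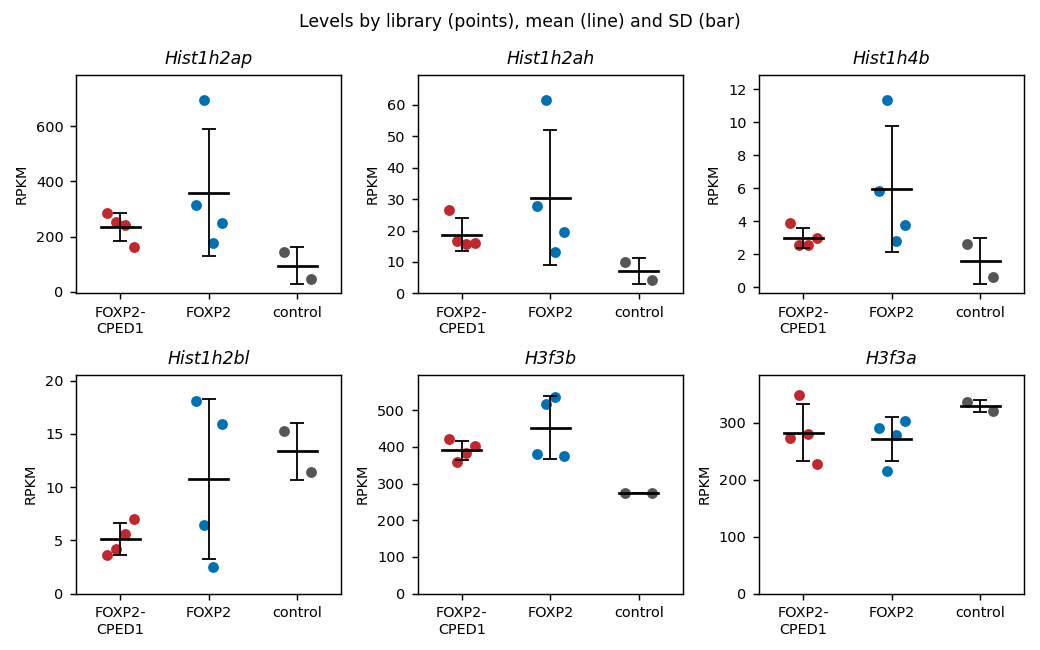
RPKM of 6 histone genes in each library (points), with mean and SD, for FOXP2-CPED1 clones (n = 4), FOXP2 clones (n = 4) and controls (n = 2). All clones lie above both controls for Hist1h2ap, Hist1h2ah and H3f3b, and the FOXP2-CPED1 clones lie below both controls for Hist1h2bl.

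Among rows that name 1 gene, the clustered H2B genes had lower levels than H2A and did not share its direction. Their median log2 fold change was -0.22 with FOXP2-CPED1 and 0.09 with FOXP2. Summed over 8 genes, H2B had 9.10, 17.9, 17.8 and 19.8 RPKM in FOXP2-CPED1 clones, 38.0, 24.4, 15.02 and 31.3 RPKM in FOXP2 clones, and 33.7 and 24.0 RPKM in parental and vector cells. All FOXP2-CPED1 clones lay below both controls, and FOXP2 clones lay on either side. The ratio of summed H2A to summed H2B RPKM was 62.3, 26.1, 23.6 and 15.5 in FOXP2-CPED1 clones and 14.3, 47.2, 20.6 and 13.7 in FOXP2 clones, against 8.06 in parental and 4.89 in vector cells. This ratio was higher in all 8 clones than in both controls, but it describes only the rows that name 1 gene. Among the joined rows left out, Hist1h2bc and Hist1h2bg with H2A and H3 genes had 84.7 to 130 RPKM in FOXP2-CPED1 clones. That row had 98.2 to 180 RPKM in FOXP2 clones, 103 in parental and 80.2 in vector cells.

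Hist1h2bl was the most abundant of the H2B rows that name 1 gene. Its levels were 3.65, 4.17, 5.62 and 7.01 RPKM in FOXP2-CPED1 clones and 18.1, 6.48, 2.46 and 15.9 RPKM in FOXP2 clones. Parental and vector cells had 15.3 and 11.5 RPKM. The FOXP2-CPED1 clones lay below both controls, whereas 2 FOXP2 clones lay above and 2 below them. By limma the log2 fold change was -1.25 ± 0.59 (SE, adjusted p = 0.701) with FOXP2-CPED1, -0.57 ± 0.59 (adjusted p = 0.848) with FOXP2 and -0.68 ± 0.48 between FOXP2-CPED1 and FOXP2. Hist1h2bq had 1.37, 2.43, 1.89 and 2.88 RPKM in FOXP2-CPED1 clones, 5.42, 2.03, 1.51 and 4.22 in FOXP2 clones, 5.08 in parental and 4.48 in vector cells. Hist1h2br had 0.834, 2.40, 1.62 and 2.14 RPKM in FOXP2-CPED1 clones, 3.51, 1.70, 1.12 and 2.86 in FOXP2 clones, 3.88 in parental and 3.20 in vector cells. In both genes FOXP2-CPED1 clones lay below the controls and FOXP2 clones 1 and 4 lay near them. With FOXP2-CPED1 their log2 fold changes were -0.90 ± 0.36 and -0.76 ± 0.33 (SE, unadjusted p = 0.0325 and 0.0466, adjusted p = 0.605 and 0.674 by limma). These 2 rows cannot be read separately, because 100% and 99.8% of the 50-base stretches of their transcripts also occur in transcripts of other genes, most often in each other's.

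The other 5 H2B rows had at most 6.46 RPKM in any library. Hist1h2bj had 0.410, 4.78, 1.802 and 2.41 RPKM in FOXP2-CPED1 clones, 5.30, 6.46, 3.56 and 1.78 in FOXP2 clones, 4.34 in parental and 0.894 in vector cells, so its groups overlapped. Hist1h2bn, Hist1h2bh, Hist2h2be and Hist1h2bp also overlapped between groups in every comparison.

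Of the H2A and H2B genes, 3 pairs lie head to head, with promoter windows (250 bases before to 50 after the start, RefSeq, GRCm38.p6) that overlap by 252 to 272 bases. These pairs share a stretch of DNA between the genes, so their values are set side by side here. Hist1h2ai lies on the plus strand and Hist1h2bl on the minus strand, with 272 shared bases at chr13:21716162-21716433. The window of Hist1h2ai, shown because its genes differ in direction, holds 4 matches to CCAAT on either strand, the box bound by factor NF-Y, marked in capitals (chr13:21716162-21716461, plus strand, GRCm38.p6).
Hist1h2ai promoter: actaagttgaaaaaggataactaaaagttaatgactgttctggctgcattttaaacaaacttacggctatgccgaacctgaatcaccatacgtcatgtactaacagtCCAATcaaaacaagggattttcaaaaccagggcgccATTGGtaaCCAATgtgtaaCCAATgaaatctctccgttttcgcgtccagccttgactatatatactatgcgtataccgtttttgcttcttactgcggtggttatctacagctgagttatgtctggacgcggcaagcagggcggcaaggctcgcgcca

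In this pair, Hist1h2ai was higher in all FOXP2-CPED1 clones than in both controls (log2 fold change 1.27) while Hist1h2bl was lower in all of them (-1.25). With FOXP2 the log2 fold changes were 1.53 for Hist1h2ai and -0.57 for Hist1h2bl. The pair Hist1h2ag and Hist1h2bj, with 252 shared bases, had 1.54 and -0.10 with FOXP2-CPED1 and 1.83 and 0.64 with FOXP2. The pair Hist1h2an and Hist1h2bp, with 261 shared bases, had 1.31 and 0.17 with FOXP2-CPED1 and 1.27 and 0.26 with FOXP2. In each pair the H2A gene had the larger log2 fold change against both controls, and no test of the difference between partners was made. For Hist1h2an and Hist1h2bp this order depends on the vector library. Without that library Hist1h2an had -0.07 with FOXP2-CPED1, against 0.36 for Hist1h2bp. With FOXP2 it had -0.11, while Hist1h2bp stayed at 0.07 or more whichever library was left out. Hist1h2bp lay under 1 RPKM in both controls and passed the filter only through clone libraries. Of the 50-base stretches of Hist1h2ai and Hist1h2bl, 90.1% and 82.8% also occur in transcripts of other genes. Neither row can therefore be assigned to this pair of genes alone.

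**Figure D3:**
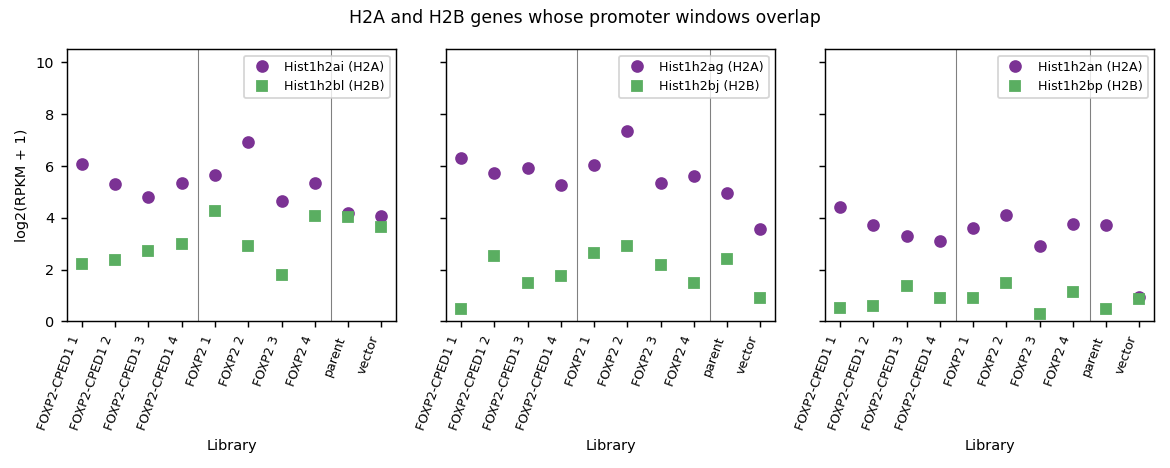
log2(RPKM + 1) of the H2A gene (circles) and the H2B gene (squares) of 3 head-to-head pairs in each library, FOXP2-CPED1 clones, FOXP2 clones, then parent and vector. Hist1h2ai and Hist1h2bl lie close together in both controls (17.1 and 15.3 RPKM in parental cells) and far apart in the FOXP2-CPED1 clones.

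The 4 clustered H3 genes had median log2 fold changes of 0.31 with FOXP2-CPED1 and 0.54 with FOXP2. H3 carries many of the modified tail residues that mark active and silent chromatin. Hist1h3h had 6.96, 4.86, 3.57 and 4.97 RPKM in FOXP2-CPED1 clones, 5.19, 9.23, 5.60 and 6.21 in FOXP2 clones, 2.91 in parental and 3.77 in vector cells. All FOXP2 clones lay above both controls, and FOXP2-CPED1 clone 3 lay between them. Its log2 fold change by limma was 0.47 ± 0.26 (SE, adjusted p = 0.760) with FOXP2-CPED1 and 0.78 ± 0.26 (adjusted p = 0.368) with FOXP2. Hist1h3i had 6.61, 4.47, 2.51 and 4.97 RPKM in FOXP2-CPED1 clones, 3.75, 8.90, 3.10 and 6.69 in FOXP2 clones, 2.61 in parental and 2.68 in vector cells. Its FOXP2 clones lay above both controls, with log2 fold changes by limma of 0.57 ± 0.38 (SE, unadjusted p = 0.161) with FOXP2-CPED1 and 0.77 ± 0.38 (unadjusted p = 0.0708, adjusted p = 0.647) with FOXP2. Hist1h3g went the other way in FOXP2-CPED1 clones, with 0.442 to 1.68 RPKM against 1.94 and 2.32 in controls, while its FOXP2 clones, 0.241 to 2.79 RPKM, overlapped the controls. FOXP2 clone 2 was the highest of the 10 libraries for all 4 H3 genes.

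The 10 clustered H4 genes had median log2 fold changes of 0.52 with FOXP2-CPED1 and 0.65 with FOXP2 against control, and each was above 0 in both. Of these, 4 passed the filter only through clone libraries (Hist1h4a, Hist1h4c, Hist1h4d and Hist1h4f), which favours that sign. H4 pairs with H3 and has the most genes among the clustered families here. Hist1h4c had 1.43, 1.47, 3.19 and 3.02 RPKM in FOXP2-CPED1 clones, 2.31, 1.66, 2.86 and 2.96 in FOXP2 clones, 0.604 in vector cells and was listed at 0 in parental cells. Hist1h4d had 3.46, 5.42, 1.29 and 1.81 RPKM in FOXP2-CPED1 clones, 4.16, 2.68, 3.67 and 2.12 in FOXP2 clones, 0.825 in parental cells and was listed at 0 in vector cells. Both genes were higher in all 8 clones than in both controls, and both are among those that passed the filter only through the clones. Within that limit, Hist1h4c had the smallest p-value of the 40 genes, with a log2 fold change by limma of 1.32 ± 0.31 (SE, unadjusted p = 0.00163, adjusted p = 0.167) with FOXP2-CPED1 and 1.43 ± 0.31 (unadjusted p = 0.000977, adjusted p = 0.114) with FOXP2. For Hist1h4d it was 1.45 ± 0.42 (adjusted p = 0.329) with FOXP2-CPED1 and 1.59 ± 0.42 (adjusted p = 0.213) with FOXP2. These levels are low, so the size depends on the pseudocount: at 0.25 and 0.1 in place of 1, the log2 fold change was 2.37 and 3.07 for Hist1h4c and 2.46 and 3.14 for Hist1h4d with FOXP2-CPED1. With FOXP2 it was 2.52 and 3.23 for Hist1h4c and 2.67 and 3.37 for Hist1h4d, and neither gene passed.

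Hist1h4b had 3.88, 2.53, 2.57 and 2.97 RPKM in FOXP2-CPED1 clones, 5.84, 11.4, 2.80 and 3.78 in FOXP2 clones, 2.59 in parental and 0.595 in vector cells. Hist1h4n had 7.77, 7.94, 3.34 and 6.61 RPKM in FOXP2-CPED1 clones, 6.52, 6.25, 4.05 and 7.21 in FOXP2 clones, 1.79 in parental and 3.82 in vector cells. For both genes the FOXP2 clones lay above both controls and the FOXP2-CPED1 clones overlapped them. Hist1h4k, the most abundant H4 row, had 12.3, 42.0, 11.0 and 11.0 RPKM in FOXP2-CPED1 clones, 38.8, 11.5, 8.15 and 17.1 in FOXP2 clones, 12.3 in parental and 11.1 in vector cells. Hist1h4i had 6.58, 13.2, 5.90 and 4.96 RPKM in FOXP2-CPED1 clones, 11.7, 5.10, 5.80 and 7.29 in FOXP2 clones, and 5.80 and 5.79 in controls. In these 2 genes FOXP2-CPED1 clone 2 and FOXP2 clone 1 stood above all other libraries, and the groups overlapped. The other 4 H4 genes, Hist1h4h, Hist2h4, Hist1h4f and Hist1h4a, overlapped between groups in both comparisons. The only clustered H1 gene, Hist1h1d, codes for a linker histone and had 0.637, 1.93, 1.44 and 1.49 RPKM in FOXP2-CPED1 clones, 1.55, 0.509, 1.89 and 1.57 in FOXP2 clones, 2.10 in parental and 1.07 in vector cells. Its groups overlapped, with log2 fold changes of -0.12 ± 0.32 with FOXP2-CPED1 and -0.13 ± 0.32 with FOXP2 (SE).

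The stem-loop at the end of clustered histone mRNAs was searched for in the GENCODE M21 transcripts as GGNNNT, a loop of TTTN, and the reverse complement of the first 6 bases. It was found in 15 of 30 clustered genes with a transcript and in 1 of 9 variant genes, beside 0.251% of 21901 protein-coding genes. In those 16 genes it took 6 distinct forms. Sites of genes described here are shown with up to 5 bases on either side as DNA letters, with the stem-loop in capitals.
Hist1h2ap: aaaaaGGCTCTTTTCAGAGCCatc
Hist1h2ag: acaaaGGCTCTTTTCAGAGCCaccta
Hist1h4b: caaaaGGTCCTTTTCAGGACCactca
Hist1h4c: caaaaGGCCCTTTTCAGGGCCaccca
Hist1h4d: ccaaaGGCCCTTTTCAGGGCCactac
Hist1h4i: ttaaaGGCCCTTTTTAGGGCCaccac
H2afx: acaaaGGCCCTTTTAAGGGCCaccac
The annotated transcript of Hist1h2ap ends 3 bases after the stem-loop, while those of Hist1h4i, Hist1h4c and Hist1h4d go on for 330, 454 and 770 bases. The other clustered transcripts include models of the coding part alone, such as Hist1h2ai, so a missing match says only that these letters are not in that model. The form of Hist1h2ap and Hist1h2ag was shared by 6 genes, which include Hist1h1d (log2 fold change -0.12 with FOXP2-CPED1) and Hist1h2bj (-0.10), and the form of Hist1h4c and Hist1h4d by 5 genes.

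Sequence shared between copies limits what a single row can say. In clustered genes the median share of 50-base stretches that also occur in transcripts of other genes was 68.3% (range 0 to 100%), and in variant genes 6.68% (range 0 to 73.8%). It was 93.1% for Hist1h2ap and 78.9% for Hist1h2ag, both with Hist1h2ao as the closest partner. For Hist1h2ah and Hist1h2ai it was 90.7% and 90.1%, both with Hist1h2ad as the closest partner. Hist1h2bl had 82.8%, Hist1h4c 19.6%, Hist1h4d 10.2% and H3f3b 8.398%. How the authors' counting treated reads with several matches is not given in the sources used here.

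Among the variants, the H3.3 genes differed from each other. H3f3a and H3f3b code for H3.3, the H3 placed in chromatin outside replication by the HIRA and ATRX/DAXX chaperones. H3f3b had 420, 360, 384 and 402 RPKM in FOXP2-CPED1 clones, 381, 518, 537 and 375 in FOXP2 clones, and 274 in both parental and vector cells. H3f3a had 273, 350, 281 and 227 RPKM in FOXP2-CPED1 clones, 290, 216, 279 and 304 in FOXP2 clones, 337 in parental and 322 in vector cells. H3f3b was higher in all 8 clones than in both controls, while H3f3a was lower in all clones except FOXP2-CPED1 clone 2. Means of H3f3b were 392 ± 25.8 RPKM with FOXP2-CPED1, 453 ± 86.5 with FOXP2 and 274 ± 0.283 in control (SD, n = 4, 4 and 2). By limma the log2 fold change of H3f3b was 0.51 ± 0.17 (SE, unadjusted p = 0.0143, adjusted p = 0.468) with FOXP2-CPED1 and 0.70 ± 0.17 (unadjusted p = 0.00226, adjusted p = 0.171) with FOXP2. For H3f3a it was -0.24 ± 0.19 (adjusted p = 0.865) and -0.29 ± 0.19 (adjusted p = 0.750). Leaving out each library in turn kept H3f3b between 0.48 and 0.55 with FOXP2-CPED1 and between 0.61 and 0.79 with FOXP2.

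H3f3c had 31.0, 26.5, 13.8 and 29.8 RPKM in FOXP2-CPED1 clones, 16.7, 14.4, 13.1 and 23.3 in FOXP2 clones, 25.9 in parental and 43.7 in vector cells. All FOXP2 clones lay below both controls, and FOXP2-CPED1 clones overlapped them. Its log2 fold change by limma was -0.46 ± 0.35 (SE, adjusted p = 0.851) with FOXP2-CPED1 and -0.99 ± 0.35 (unadjusted p = 0.0170, adjusted p = 0.399) with FOXP2. GENCODE M21 annotates H3f3c as a processed pseudogene, and 73.8% of its 50-base stretches occur in other transcripts, most often those of H3f3a. Without the vector library its log2 fold change was -0.10 with FOXP2-CPED1 and -0.62 with FOXP2.

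The promoter windows of the 2 H3.3 genes are shown because their levels differed in direction (RefSeq, GRCm38.p6; H3f3b chr11:116024455-116024754, minus strand; H3f3a chr1:180813556-180813855, minus strand). Capitals mark matches on either strand to CCAAT, to TATAAA, the element bound by TBP near many starts, and to ATTTGCAT, the octamer bound by POU factors.
H3f3b promoter: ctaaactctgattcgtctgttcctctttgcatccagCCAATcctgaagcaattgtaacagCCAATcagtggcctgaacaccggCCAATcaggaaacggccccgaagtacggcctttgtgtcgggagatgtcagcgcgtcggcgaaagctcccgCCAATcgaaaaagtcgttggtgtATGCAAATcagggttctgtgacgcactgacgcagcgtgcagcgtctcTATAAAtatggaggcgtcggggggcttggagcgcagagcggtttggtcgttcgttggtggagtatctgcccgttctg
H3f3a promoter: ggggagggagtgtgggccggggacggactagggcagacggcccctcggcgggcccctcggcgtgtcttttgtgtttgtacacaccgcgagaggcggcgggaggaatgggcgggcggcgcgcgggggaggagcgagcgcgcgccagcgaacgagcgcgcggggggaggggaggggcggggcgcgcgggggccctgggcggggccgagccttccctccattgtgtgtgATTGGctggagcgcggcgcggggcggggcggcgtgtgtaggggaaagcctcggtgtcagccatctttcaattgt

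The H3f3b window held 4 CCAAT matches, 1 TATAAA and 1 octamer, and the H3f3a window 1 CCAAT. Of 26 clustered genes with a single promoter entry, 20 held CCAAT, 14 TATAAA and 2 the octamer, and of 8 variant genes 5, 1 and 1 did. Over 32851 mouse promoters the shares were 37.4%, 13.6% and 1.74%. By family, CCAAT stood in 5 of 5 H2A, 7 of 7 H2B and 4 of 4 H3 windows, and in 3 of 9 H4 windows. The H2A and H2B windows are not all separate sequences. Those of the head-to-head pairs share 252 to 272 bases, and those of Hist1h2bq and Hist1h2br are identical, so some boxes count more than once. These matches are letters in a window, and binding was not measured.

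None of the remaining variants passed the test by limma with equal weights. H2afz, which codes for H2A.Z, a variant found around transcription starts, had 464, 412, 359 and 645 RPKM in FOXP2-CPED1 clones, 446, 867, 352 and 446 in FOXP2 clones, 424 in parental and 370 in vector cells. H2afx, whose product is phosphorylated at DNA breaks, had 42.8, 42.0, 35.3 and 57.7 RPKM in FOXP2-CPED1 clones, 37.8, 67.6, 38.3 and 24.4 in FOXP2 clones, 44.5 in parental and 37.8 in vector cells. Both genes were highest in FOXP2 clone 2 and next highest in FOXP2-CPED1 clone 4, and their groups overlapped. Their log2 fold changes were 0.21 ± 0.33 and 0.09 ± 0.33 with FOXP2-CPED1, and 0.33 ± 0.33 and -0.06 ± 0.33 with FOXP2 (SE).

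H2afj had 95.8, 89.9, 68.8 and 97.3 RPKM in FOXP2-CPED1 clones, 78.3, 123, 77.7 and 81.7 in FOXP2 clones, 122 in parental and 105 in vector cells. All FOXP2-CPED1 clones and 3 of 4 FOXP2 clones lay below both controls, with log2 fold changes of -0.37 ± 0.22 and -0.35 ± 0.22 (SE, adjusted p = 0.784 and 0.727 by limma). H2afy, a macroH2A gene whose product carries a large extra domain, had 38.9 to 45.6 RPKM in FOXP2-CPED1 clones and 41.2 to 48.6 in FOXP2 clones, against 39.1 and 44.3 in controls. H2afy and the other macroH2A gene, H2afy2, had log2 fold changes of 0.02 ± 0.13 and -0.04 ± 0.33 with FOXP2-CPED1 and 0.14 ± 0.13 and 0.08 ± 0.33 with FOXP2. H1f0, a linker histone gene known from cells that leave the cycle, had 197, 213, 228 and 175 RPKM in FOXP2-CPED1 clones, 197, 229, 222 and 211 in FOXP2 clones, 206 in parental and 151 in vector cells. Its groups overlapped, with log2 fold changes of 0.20 ± 0.16 with FOXP2-CPED1 and 0.28 ± 0.16 with FOXP2 (SE). The H1f0 row set aside had 126, 127, 104 and 132 RPKM in FOXP2-CPED1 clones and 97.1, 151, 142 and 109 in FOXP2 clones. In that row parental cells had 115 and vector cells 137 RPKM, and the groups also overlapped.

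**Figure D4:**
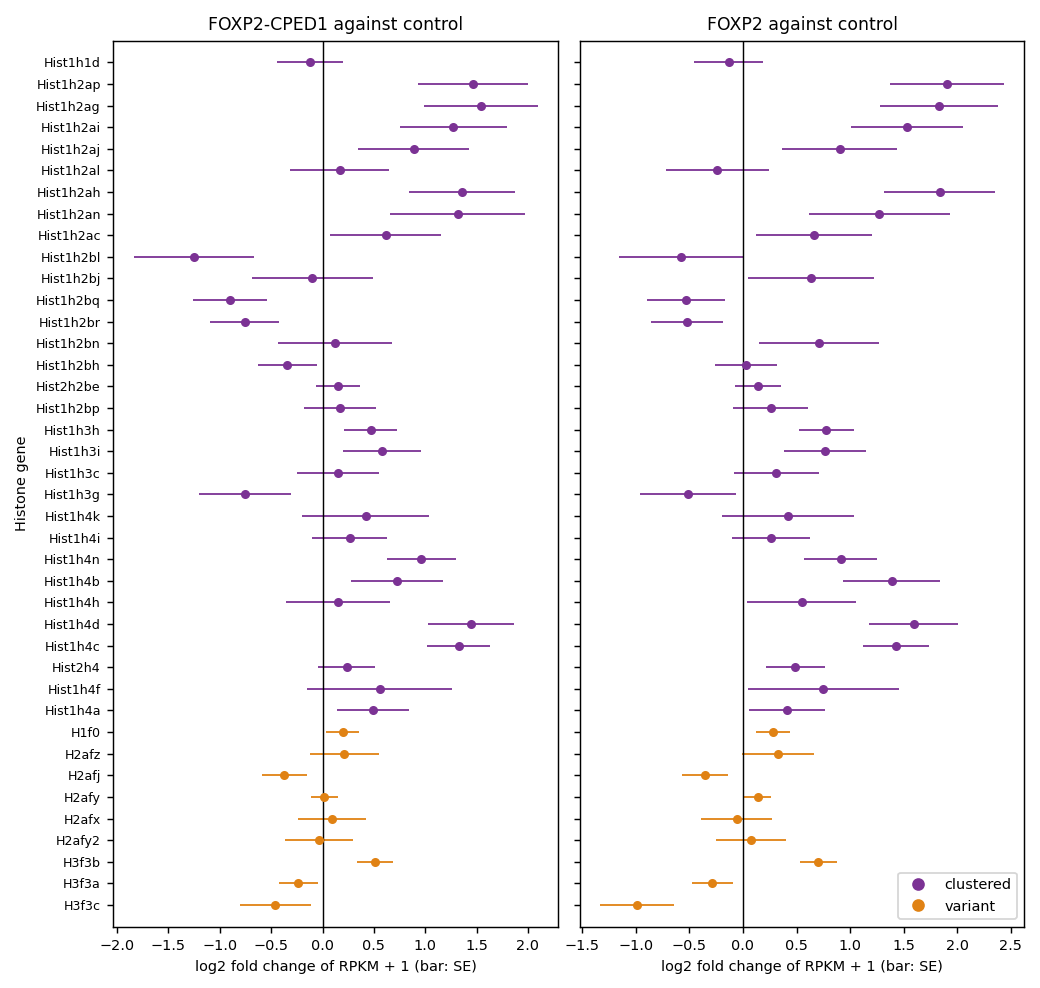
log2 fold change of RPKM + 1 with its SE for each of the 40 histone genes, FOXP2-CPED1 against control (left) and FOXP2 against control (right), clustered and variant genes in separate colours. All H4 genes, and all clustered H2A genes except Hist1h2al with FOXP2, lie right of 0, up to 1.54 with FOXP2-CPED1 and 1.90 with FOXP2, and H3f3b is the variant farthest to the right.

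Between FOXP2-CPED1 and FOXP2 clones, the median log2 fold change was -0.19 for the 31 clustered and -0.09 for the 9 variant genes, beside -0.0106 for all rows. Of the clustered genes 24 of 31 lay below 0, among them 7 of 8 H2B genes with a median of -0.37. The largest were -0.73 ± 0.48 for Hist1h2bj and -0.68 ± 0.48 for Hist1h2bl (SE). Standard errors ran from 0.11 for H2afy to 0.58 for Hist1h4f, so sizeable differences between the constructs could go undetected, and the test does not show that they act alike. The values also turn on FOXP2 clone 2, the highest of the 10 libraries for 14 of 31 clustered and 6 of 9 variant genes. Without FOXP2 clone 2 the median of the variant genes was 0.06.

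The clones of each construct also differed in genes of DNA replication, so a list of S-phase genes was set beside the histones. Against control, 0 of its 22 genes with a tested row passed, with medians of 0.18 with FOXP2-CPED1 and 0.11 with FOXP2. All 22 lay above 0 with FOXP2-CPED1, and with FOXP2 18 lay above and 4 below 0, given as a description. In single libraries the median log2 difference of these genes from the control mean was 0.08, -0.01, -0.25 and 0.89 in FOXP2-CPED1 clones 1 to 4, 0.06, 0.98, -0.61 and 0.01 in FOXP2 clones 1 to 4, and 0.05 and -0.05 in parental and vector cells. The median of the clustered histone genes was 0.32, 0.58, 0.27 and 0.45 in FOXP2-CPED1 clones, 0.78, 0.98, 0.32 and 0.52 in FOXP2 clones, and 0.07 and -0.07 in parental and vector cells. FOXP2 clone 2 was highest in both. FOXP2-CPED1 clone 4 had the highest S-phase median of its arm and the second highest clustered median, with the lowest summed clustered RPKM (379), and FOXP2 clone 3 had the lowest S-phase genes and clustered genes above both controls. The part of cell cycle state in the histone levels was not tested.

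**Figure D5:**
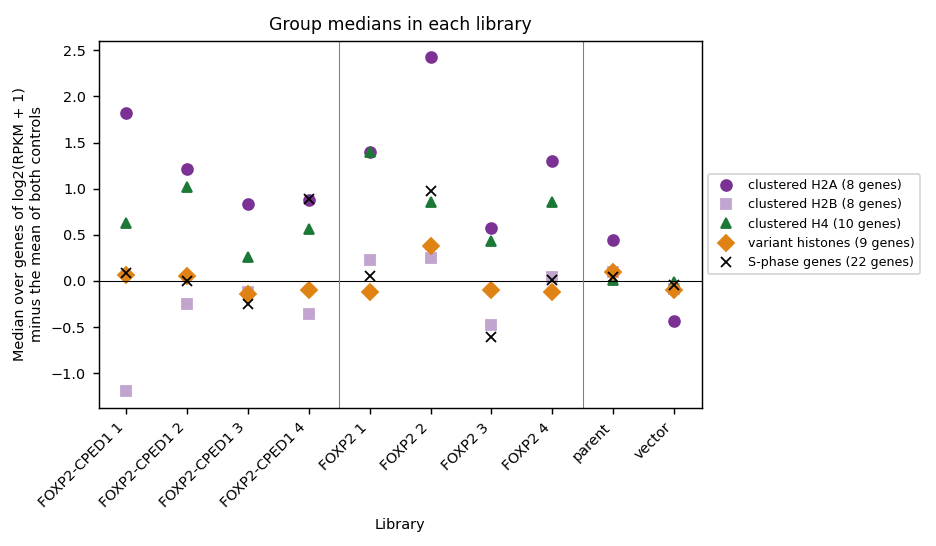
Median log2 difference from the mean of both controls, per library, for clustered H2A, H2B and H4 genes, variant genes and S-phase genes. The H2A median runs from 0.57 to 2.42 in the clones, against 0.44 in parental and -0.44 in vector cells, and S-phase genes stand high in FOXP2-CPED1 clone 4 (0.89) and FOXP2 clone 2 (0.98).

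Genes that make histone mRNAs and place histones were followed as further lists. Of 19 tested genes of histone transcription and mRNA processing, 0 passed in any comparison, and the median log2 fold change was 0.19 with FOXP2-CPED1 and 0.15 with FOXP2. Slbp, which binds the stem-loop, had 35.2, 27.6, 30.6 and 42.0 RPKM in FOXP2-CPED1 clones, 28.6, 56.9, 27.8 and 19.0 in FOXP2 clones, 24.9 in parental and 25.1 in vector cells. Its level was above both controls in all clones but FOXP2 clone 4, with log2 fold changes of 0.41 ± 0.34 with FOXP2-CPED1 and 0.28 ± 0.34 with FOXP2 (SE). Npat, the activator of clustered histone transcription, had log2 fold changes of 0.31 ± 0.16 and 0.13 ± 0.16, and Hinfp, which binds H4 promoters, 0.43 ± 0.20 and 0.42 ± 0.20, in the same order. Cstf2, a subunit of the cleavage stimulation factor, had 18.4 to 42.8 RPKM in FOXP2-CPED1 clones and 19.6 to 34.4 in FOXP2 clones, against 13.9 and 14.7 in controls, without overlap (adjusted p = 0.614 and 0.535 by limma). Ncbp1, a subunit of the cap-binding complex, had a log2 fold change of 0.43 ± 0.17 (SE, adjusted p = 0.573 by limma) with FOXP2-CPED1 and 0.31 ± 0.17 (adjusted p = 0.692) with FOXP2.

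Of 20 tested histone chaperone genes, 0 passed in any comparison, and the medians were 0.07 with FOXP2-CPED1 and 0.09 with FOXP2. Atrx, a remodeller that places H3.3, had 46.8, 53.2, 70.9 and 53.0 RPKM in FOXP2-CPED1 clones, 67.1, 38.5, 72.8 and 68.2 in FOXP2 clones, 33.5 in parental and 41.2 in vector cells. Its log2 fold change by limma was 0.56 ± 0.26 (SE, adjusted p = 0.694) with FOXP2-CPED1 and 0.67 ± 0.26 (adjusted p = 0.481) with FOXP2. Of 20 mitosis genes and 7 genes of cell cycle exit, 0 passed in any comparison. Btg2, an antiproliferative gene of the second list, had 6.18, 9.13, 3.94 and 16.2 RPKM in FOXP2-CPED1 clones, 16.7, 13.8, 12.8 and 10.2 in FOXP2 clones, 38.9 in parental and 39.5 in vector cells. All 8 clones lay below both controls, with log2 fold changes by limma of -2.18 ± 0.40 (SE, unadjusted p = 0.000279, adjusted p = 0.0670) with FOXP2-CPED1 and -1.51 ± 0.40 (adjusted p = 0.227) with FOXP2. Noncoding RNAs known to lack a poly(A) tail, of which 5 of 15 had a row, summed to 453 to 1149 RPKM in FOXP2-CPED1 clones, 727 to 1294 in FOXP2 clones, and 608 and 1030 in controls. Malat1 made up most of these sums, with 383 to 1084 RPKM in FOXP2-CPED1 clones, 678 to 1271 in FOXP2 clones, and 551 and 993 in controls, and its groups overlapped. Rn7sk had a log2 fold change of -0.04 ± 0.31 with FOXP2-CPED1 and -0.59 ± 0.31 with FOXP2 (SE). Their part in the levels of clustered histone genes was not tested.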

How the data were processed

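RNA sequencing of 10 libraries was analysed from the authors' deposited table of RPKM values, which per the file headers has 1 column for each library. HISAT2 and StringTie with mm9 as the genome are named in the submitters' processing notes, without versions; the annotation, the strand setting and the treatment of multiply matching reads are not stated there. Rows without a gene name (3581 of 18430) were left out, and 987 joined rows were kept in the fit but counted as no histone gene. With limma 3.58.1 (R 4.3.3), 1 linear model of 3 arms was fitted to log2(RPKM + 1) over 10 libraries, using moderated variances that follow the mean, two-sided tests and Benjamini-Hochberg adjustment over 12842 rows at 0.05. The fit was tested on simulated data. Fold changes on this scale understate low genes, and RPKM gives no counting intervals.

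The histone genes and lists were chosen with earlier results of these data known, so no p-value was computed over a list. Any histone gene could be named; those described in full were, per family of clustered or variant genes, the 1 with the highest mean and the 2 with the smallest p-values, and others were added after their values were seen. Sequences came from RefSeq promoters (GRCm38.p6, 34 of 40 genes with 1 match) and GENCODE M21 transcripts. The clone number did not pair the samples. For a single gene, a sign change under an alternative was counted as a reversal where its fold change exceeded its SE. The alternatives were other pseudocounts, filters, normalizations and model settings, the clone number as a block, and leaving out libraries. Leaving out annotated pseudogenes and adding joined histone rows were chosen after seeing the data.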

Additional observations from a re-analysis of the deposited data

Results flagged for a closer look

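A value was picked out where 1 of the 4 clones of a construct lay far from the other 3 on the log2(RPKM + 1) scale. Its gap, as a share of the whole range, had to exceed Dixon's critical value for 4 samples. This rule was applied to 96 groups of 4 clones and picked out 6, where chance alone gives about 1 group in 20. The gaps below are on the log2 scale, and on the RPKM values printed beside them the shares differ. FOXP2-CPED1 clone 1 stood above the other clones of its construct for Hist1h2ah (gap 0.902 of the range, 26.5 RPKM against 15.7 to 16.6) and below them for the summed H2B genes (gap 0.864, 9.10 RPKM against 17.8 to 19.8). FOXP2-CPED1 clone 2 stood above the others for Hist1h4k (gap 0.915, 42.0 RPKM against 11.0 to 12.3). FOXP2 clone 2 stood above the others for H2afj (gap 0.891, 123 RPKM against 77.7 to 81.7) and for the summed variant genes (gap 0.849, 2114 RPKM against 1511 to 1589). FOXP2 clone 3 stood below the others for Hist1h2bh (gap 0.858, 0.804 RPKM against 1.91 to 2.15).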

How the results depend on the processing

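The counts of histone genes past the threshold stayed at 0 under every alternative except library quality weights, which gave 9 with FOXP2-CPED1 (7 higher, 2 lower) and 18 with FOXP2 (15 higher, 3 lower). The clustered median with FOXP2-CPED1 against control was 0.92 with a filter on a mean of 5 RPKM (12 genes left), 0.59 without the 3 libraries with mitochondrial rows at 0, 0.25 with joined rows added, and 0.26 to 0.59 with each library left out. With FOXP2 it was 0.51 to 0.71 with each library left out. Between constructs it was -0.37 to -0.072 with each library left out, and the variant median was -0.11 to 0.057, and 0.044 with quality weights. Signs turned for H1f0 with FOXP2-CPED1 without the vector library (-0.027, with a highest value of 0.42 without the parental one), for Hist1h2bq with FOXP2 under quality weights (0.040), and, between constructs without the 3 libraries, for Hist1h2ah (0.00813) and Hist1h3h (0.030); the cause was not tested. Clone numbers did not pair the samples, as same-numbered clones correlated at -0.24 to 0.28, and with the number as a replicate block 0 histone genes passed between FOXP2-CPED1 and FOXP2.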

Other observations

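Histone rows that join several genes were kept out of the 40 genes, and all 13 passed the same filter. Hist1h4m with Hist1h2ao, an H4 and an H2A gene, had 266, 163, 125 and 95.7 RPKM in FOXP2-CPED1 clones, 173, 471, 105 and 111 in FOXP2 clones, 75.8 in parental and 40.2 in vector cells. Hist1h2ab with Hist1h3b had 47.3, 33.7, 27.8 and 27.1 RPKM in FOXP2-CPED1 clones, 36.9, 86.4, 25.8 and 33.6 in FOXP2 clones, 15.7 in parental and 12.9 in vector cells. In both rows every clone lay above both controls and FOXP2 clone 2 was highest. Neither passed, with log2 fold changes of 1.43 ± 0.59 and 1.16 ± 0.41 with FOXP2-CPED1, and 1.65 ± 0.59 and 1.46 ± 0.41 with FOXP2 (SE). The row that joins the H2B genes Hist1h2bk and Hist1h2bj had 3.46, 6.05, 5.93 and 8.15 RPKM in FOXP2-CPED1 clones, 2.79 to 12.7 in FOXP2 clones, 13.2 in parental and 12.2 in vector cells. All FOXP2-CPED1 clones lay below both controls, with a log2 fold change by limma of -1.03 ± 0.46 (SE, unadjusted p = 0.0485, adjusted p = 0.680), and the FOXP2 clones overlapped them (-0.77 ± 0.46). The row of Hist1h2bc and Hist1h2bg with Hist1h2af, Hist1h2ad and Hist1h3d had a log2 fold change of 0.12 ± 0.25 (SE) with FOXP2-CPED1. By limma it was 0.61 ± 0.25 (unadjusted p = 0.0365, adjusted p = 0.535) with FOXP2. Between FOXP2-CPED1 and FOXP2 it was -0.50 ± 0.21 (unadjusted p = 0.0376, adjusted p = 0.9998 by limma).

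Further joined rows had their lowest values in the libraries with the highest S-phase medians. Hist2h2aa2 with Hist2h3c2 had 76.8, 105, 92.2 and 30.8 RPKM in FOXP2-CPED1 clones, 87.2, 37.1, 102 and 65.2 in FOXP2 clones, 69.4 in parental and 60.7 in vector cells. Hist1h1c, a linker histone gene, joined with Hist1h2bb, had 31.9, 65.2, 46.2 and 22.6 RPKM in FOXP2-CPED1 clones, 51.3, 19.8, 60.9 and 42.3 in FOXP2 clones, 30.3 in parental and 30.7 in vector cells. FOXP2-CPED1 clone 4 and FOXP2 clone 2 were the lowest libraries of both rows, as they were of Hist1h2al. The groups overlapped in both rows.

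Outside the histone genes, the tested rows whose log2(RPKM + 1) followed the clustered histone median most closely over the 10 libraries were Txndc11 (Pearson's r = 0.966), Mvk (0.899), Taf5 (0.891), Tbp (0.886) and Mettl18 (0.881). They were picked as the 5 highest of all rows, the libraries share their arms and depth, and no p-value is given.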
